A study of Drosophila melanogaster with 4 samples.

Results

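The 92 cytoplasmic ribosomal protein genes of Drosophila melanogaster were described across peak lists of H3K27me3 and H3K27ac from sorted embryonic neuroblast nuclei with and without knockdown of Cut. Members were the protein-coding genes on 2L, 2R, 3L, 3R, 4 and X whose symbol starts with RpL or RpS and a digit, together with RpLP0, RpLP1, RpLP2 and sta, out of 13922 protein-coding genes on these 6 arms. They comprise 50 genes of the large subunit, 39 of the small subunit (sta included) and 3 of the stalk. For each gene, the dm6 span and 500 bp on either side formed a window, and cover is the length or the share of that window under deposited peaks. The choice of members went by symbol and arm and used no measured value, though earlier results of these data were known when it was made.

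The series holds 4 libraries, which are H3K27me3 and H3K27ac in Cut_KD and in Control embryos, with 1 library for each combination. Cut, encoded by ct, is a homeodomain transcription factor, and its RNA was targeted by RNA interference in the Cut_KD group. Both genotypes carried wor-gal4 and UAS-dsRed, and dsRed-positive nuclei were sorted from formaldehyde-fixed embryos collected over 16 h at 25 °C. The labels state that the driver is active in the nervous system from stage 11 and that at least 50% of the sorted nuclei were positive, so other nuclei are part of the material. The source of the hairpin, its driver and the full control genotype were not stated by the labels used here. With 1 library per combination, differences between genotypes could not be set against a spread of replicates, so values stand side by side without tests. In sorted bulk nuclei fewer marked cells and less mark per cell cannot be told apart.

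Ribosomal proteins assemble with ribosomal RNA into the small subunit, which decodes messenger RNA, and the large subunit, which joins amino acids. In flies nearly all of them are encoded by short, highly transcribed genes whose products are needed in matched amounts, and loss of a single copy of many of these genes gives the Minute phenotype of slow growth and thin bristles. Neuroblasts, from which the fly nervous system is built, grow between divisions and make many ribosomes. H3K27ac marks active promoters and enhancers, and H3K27me3 is the mark laid down by Polycomb repressive complex 2 over silent developmental genes.

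On the 6 arms the H3K27ac lists held 25941 peaks over 22.2 Mb (control) and 25519 peaks over 14.8 Mb (knockdown). The H3K27me3 lists held 4238 peaks over 4.68 Mb and 18692 peaks over 19.5 Mb. Read depth is unknown, and its part in the differences below was not tested. The labels give 1 catalogue number for both antibodies, which bears on every statement about both marks at 1 gene, and its part in them was not tested. Peaks do not separate the labelled cell type here. Of 9 neuroblast markers, 8 had H3K27ac in the control and 9 in the knockdown, and of 12 markers of neurons, glia, muscle, epidermis, blood and fat, 12 and 11 had it. The targeted gene ct had 1006 bp of H3K27ac and 2486 bp of H3K27me3 in the control window and 2422 and 5548 bp in the knockdown window, values that measure no transcript.

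**Figure D1:**
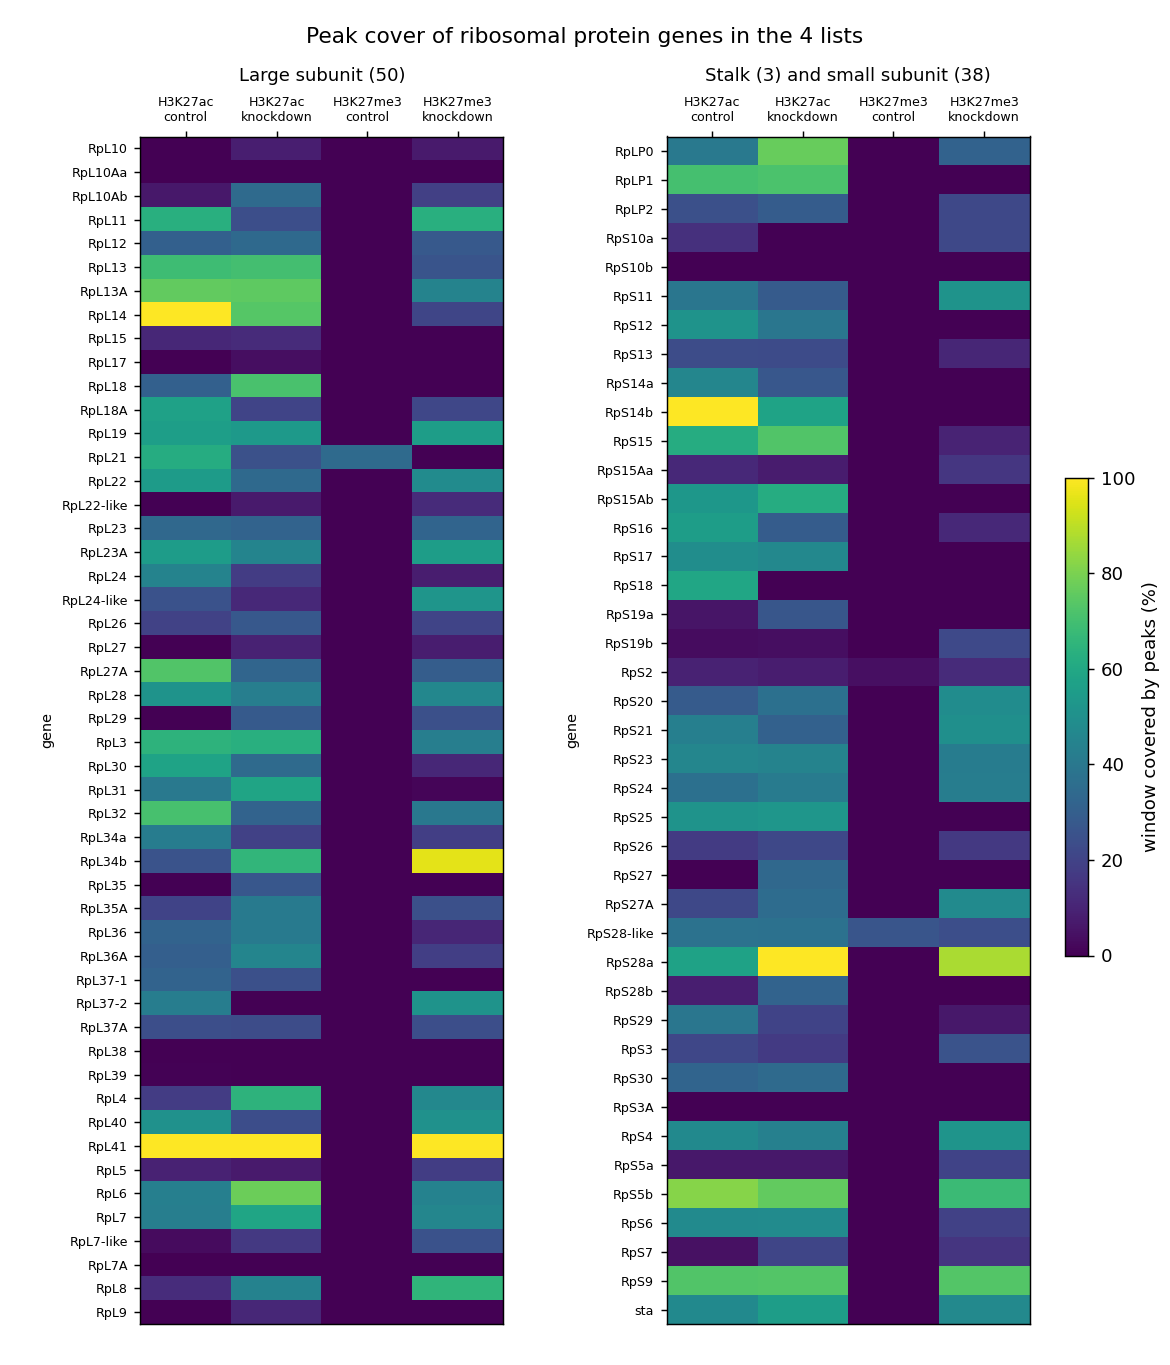
Share of each gene's window (gene span and 500 bp on either side) covered by peaks in the 4 lists, in percent by colour, for the large subunit, stalk and small subunit genes (rows), with 1 small subunit gene not shown. Most rows are coloured in both H3K27ac columns, 3 rows in the H3K27me3 control column and 67 in the H3K27me3 knockdown column.

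Ribosomal protein genes carried H3K27ac in both genotypes, and their summed cover hardly differed between the lists. In the control 79 of the 92 genes had a peak (85.9%, 95% exact Clopper-Pearson interval 77.0 to 92.3%), against 80.1% of all protein-coding genes. In the knockdown 83 had one (90.2%, 82.2 to 95.4%), against 76.9% of all genes. Intervals here cover counting error only. Summed over the members' windows, H3K27ac covered 74.9 kb with control peaks and 75.7 kb with knockdown peaks. Mean cover of the members was 34.8% in both lists, whereas that of all genes was 26.3% and 19.0%. The members' mean difference, knockdown minus control, was -0.024 points (all genes -7.25). It was 8.46 points when −log10 q had to reach 2 (all genes 1.17). When the fold had to reach 2 it was 10.1 points (all genes 6.36). That fold cut is uneven, since it leaves 32.6% of peaks in the control list but 80.3% in the knockdown list. The part of this unevenness in the 10.1 points was not tested. At least 50% of the window was covered at 28 members in the control (17.3% of all genes reached this) and at 23 in the knockdown (9.07% of all genes). Cover was higher in the knockdown at 45 members, lower at 42 and equal at 5. Over all genes it was higher at 28.0% and lower at 59.1%.

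The near equality of the totals hid differences of both signs at single genes. Cover was at least 20 percentage points higher in the knockdown at 14 members and at least 20 points lower at 15, where the shares of all genes were 6.52% and 21.6%. The largest gain was at RpL4, a protein of the peptide exit tunnel, with 546 bp covered in the control and 1984 bp in the knockdown. RpL18 had 658 and 1530 bp, and RpLP0, the base of the stalk that binds translation factors, had 1056 and 2013 bp. In the opposite direction RpS18, a protein of the head of the small subunit, had 1105 bp in the control and no peak in the knockdown. That control peak had a fold of 1.89 and a −log10 q of 1.65, so it fails both stricter settings. RpL27A had 1585 and 710 bp. RpL11, which joins RpL5 and the 5S RNA in a particle of the large subunit, had 1564 and 595 bp. At 29 of the 75 members with H3K27ac in both lists the cover differed by 5 points or less, where 28.4% of all such genes did. Among these were RpS6, the target of S6 kinase (1297 and 1303 bp), and RpL3, which lies near the peptidyl transferase centre (2772 and 2695 bp). Across the 92 members control cover and knockdown cover had a Spearman rho of 0.64 and a Pearson r of 0.67 (0.59 and 0.59 over all 13922 genes), as a description of windows that share gene length and the ends of neighbouring genes.

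**Figure D2:**
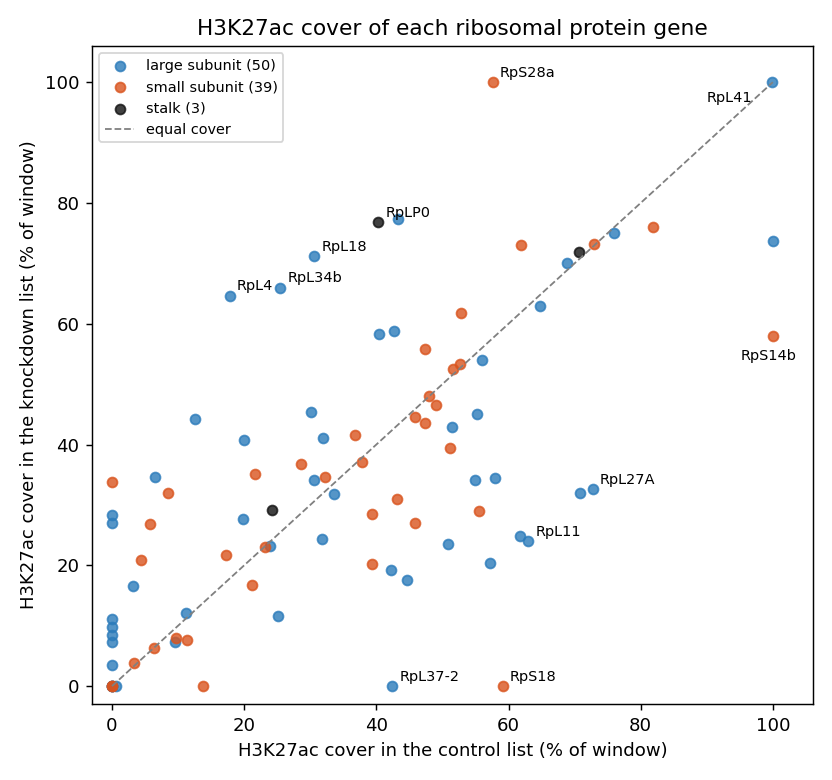
H3K27ac cover of each of the 92 genes in the control list (horizontal axis, percent of window) and in the knockdown list (vertical axis, percent of window), 1 point per gene, with the line of equal cover. Of the points, 45 lie above the line and 42 below it, and RpL4 (above) and RpS18 (below) are among the labelled points.

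The balance differed between the genes and their flanks. Within the gene spans the mean H3K27ac cover of the members was 40.6% in the control and 46.6% in the knockdown, while over all genes it was 29.3% and 22.4%. In the 500 bp on either side the members had 27.2% and 19.6%, and all genes 20.7% and 13.3%. Control peaks at members were longer, with a median width of 904.5 bp (96 peaks) against 648 bp in the knockdown (113 peaks). Over all H3K27ac peaks of the lists the medians were 625 and 432 bp, so control peaks were longer there too. Single genes differed from these means. At RpL28, a large subunit protein, the cover within the gene was 1045 bp in the control and 824 bp in the knockdown. Its control peak at 3L:3219286-3221735 began well beyond the gene's left end, and the knockdown peak at 3L:3220428-3221535 lay inside it. RpS9, a protein of the body of the small subunit, had a control peak at 3L:9508329-9511289 and a knockdown peak at 3L:9509163-9511295, whose right ends lie 6 bp apart, and its cover within the gene was 1497 and 1503 bp. Of the 75 members with H3K27ac in both lists, 73 had bases in common between the lists, as did 92.7% of the 9702 genes of the series with H3K27ac in both, so the count is near the background. The exceptions were RpS5a and RpS19a, where the peaks lay at different places in the window.

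H3K27ac peaks at ribosomal protein genes tended to stand high among genes with a peak in the same list. The fold enrichment is the authors' deposited value for each peak, and folds of different libraries may differ in scale. Among genes with H3K27ac in a list, the members' highest peak fold had a median of 2.11 in the control (percentile 71.0 of such genes, all-gene median 2.02) and 2.66 in the knockdown (percentile 83.1, all-gene median 2.33). Single members stood low, down to percentile 2.03 at RpL37-2 (control) and 14.0 at RpL27 (knockdown). The peak at 3L:3222731-3222929 near the right end of RpL28 had a fold of 4.11, rank 3 of the 25519 peaks of the knockdown list. The control peak at the same place, 3L:3222741-3222984, had a fold of 2.66 and rank 73 of 25941. RpL26 (3.61) and RpL30 (3.57) came next among the members in the knockdown and ranked 29 and 38 there. In the control the highest members were RpS28-like (2.71), RpL28 and RpS13 (2.58). The RpS28-like peak (2L:9437391-9437568) lay in the flank, outside the gene span. The fold was the higher in the knockdown list at 71 of the 75 members with both, where 90.4% of all such genes had the higher fold there, so the members' share is near that of the lists as a whole.

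A few members had H3K27ac in 1 list or in none. It was present only in the knockdown at 8 members (8.70%, 7.17% of all genes), namely RpL9, RpL10, RpL17, RpL22-like, RpL27, RpL29, RpL35 and RpS27. Among these, RpS27 had 865 bp, RpL35, a protein at the mouth of the exit tunnel, had 581 bp, and RpL17 had 131 bp. It was present only in the control at 4 members (4.35%, 10.4% of all genes), which were RpS18, RpL37-2 (603 bp), RpS10a (222 bp) and RpL39 (9 bp). Weak peaks were among both groups, with a −log10 q of 1.21 at RpL37-2 (control) and 1.24 at RpL27 (knockdown). RpL39 overlaps RpL12 on 2R, and its 9 bp are the edge of the RpL12 peak at 2R:24060602-24061361. Neither list had a peak at RpL7A, RpL10Aa, RpL38, RpS3A and RpS10b (5.43%, 12.7% of all genes). RpL38, known in mouse for its part in the translation of Hox messages, lies toward the centromere of 2R (2R:4515388-4516458), and RpS3A lies on chromosome 4 (4:65225-67207). A window without a peak is below the authors' threshold and is not shown to lack the mark.

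H3K27me3 was nearly absent from ribosomal protein genes in the control list and, as across all genes, frequent in the knockdown list. In the control 3 of 92 members had a peak (3.26%, 0.678 to 9.23%), against 12.2% of all genes and 7.10% of the 10192 genes within the members' range of lengths. In the knockdown 67 had a peak (72.8%, 62.6 to 81.6%), against 68.1% of all genes and 60.8% of those within the members' range of lengths. The control interval holds the 7.10% but not the 12.2%, and the knockdown interval holds the 68.1% but not the 60.8%. The summed length was 1.08 kb with control peaks and 54.8 kb with knockdown peaks. The mark was found only in the knockdown at 65 members (70.7%, 57.3% of all genes), only in the control at 1 (1.34% of all genes), in both at 2 (10.8% of all genes) and in neither at 24 (30.6% of all genes). Cover was higher in the knockdown at 66 members, where 66.0% of all genes had more. Among genes with H3K27ac in both lists, H3K27me3 lay in the knockdown list at 61 of 75 members and at 82.6% of the 9702 genes of the series. Relative to those genes the members' count, 81.3%, is near the background. It was only in the knockdown list at 59 of the 75, against 69.3% of the 9702 genes.

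The count of 65 depends on how the lists are set against each other. With the longer list of each mark trimmed by its lowest −log10 q to the covered length of the shorter, 5 members had H3K27me3 only in the knockdown (7.99% of all genes). When −log10 q had to reach 2 there were 16 (19.6% of all genes), when the fold had to reach 2 there were 20 (21.0%), and with only H3K27me3 bases outside H3K27ac peaks there were 39 (41.5%), a setting chosen after seeing the data.

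Cover by H3K27me3 in the knockdown ranged from none to the whole window. At least 50% of the window was covered at 14 members (15.2%, 11.3% of all genes), and in the control at 0 members (1.64% of all genes). RpL41, which encodes a very short peptide at the interface of the subunits, was covered over all 1520 bp of its window by a peak at 2R:24902449-24905988, with none in the control. RpL34b followed with 1910 bp (96.0%), then RpS28a with 1137 bp (87.2%), RpS9 with 2007 bp (73.3%) and RpS5b with 1453 bp (68.2%). At the low end RpLP1 had 3 bp and RpL31 had 28 bp, which are edges of peaks that lie mostly outside the window. The highest peak folds among members were 2.33 at RpL26, 2.28 at RpL28 and 2.20 at RpL27. The members' median of the highest fold was 1.93, as was that of all genes with a peak, so these peaks did not stand high in their list.

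The 3 members with H3K27me3 in the control were RpL21, RpS2 and RpS28-like. Within the gene span RpL21 had 215 bp of it, whereas at RpS2 and RpS28-like it lay only in the flanks in both lists. No member had H3K27me3 in the control when −log10 q or the fold had to reach 2. RpL21 lies toward the centromere of 2L and had 611 bp in the control (2L:22246715-22247325, fold 1.88) and none in the knockdown, while its H3K27ac was 1091 and 438 bp. RpS2, known in flies as string of pearls for its mutant ovaries, had 98 and 284 bp. RpS28-like had 374 and 343 bp from peaks of nearly the same span, 2L:9437354-9438323 in the control and 2L:9437385-9438352 in the knockdown. RpL21 and RpS28-like were the members with less H3K27me3 in the knockdown (2.17%, 3.09% of all genes had less).

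Next, both marks were compared at the same genes. In the knockdown 61 members had bases under both marks (66.3%, 54.0% of all genes), and in the control 3 had (3.26%, 7.83% of all genes). The knockdown count was 6 of 92 with lists of equal covered length (9.62% of all genes). It was 13 with −log10 q of at least 2 (7.10% of all genes) and 18 with a fold of at least 2 (15.8%). Of the members' H3K27me3 bases in the knockdown, 64.8% lay inside knockdown H3K27ac peaks, against 36.5% over the windows of all genes and 43.1% over those of genes within the members' range of lengths. Inside control H3K27ac peaks lay 64.2% of them, against 54.2% for all genes. The members' windows also had more H3K27ac cover than those of all genes. Its median was 32.0% against 13.2% in the knockdown and 35.2% against 20.8% in the control. More cover takes in more bases of any kind, and its part in these shares was not tested. Of the 67 members with H3K27me3 in the knockdown, 65 had bases of it inside an H3K27ac peak of 1 or the other genotype, where 93.3% of all genes with the mark did, so the count is near the background.

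At several members the edges of the peaks of both marks nearly coincided. The knockdown H3K27me3 peak at RpS9 (3L:9509301-9511307) ended 12 bp from the knockdown H3K27ac peak there. At RpL28 the short H3K27me3 peak 3L:3222748-3222945 lay at the place of the H3K27ac peak of fold 4.11. At RpL26 the H3K27me3 peak was 3L:18899325-18899840 and the H3K27ac peaks were 3L:18899153-18899814 in the knockdown and 3L:18899279-18899780 in the control. At RpL34b the H3K27me3 peak 3R:9399817-9402067 also spanned bases between the H3K27ac peaks. In the counter examples RpL5, RpLP1, RpS19b and RpS29 both marks were in the knockdown window without a base in common. Of the 14 members with no H3K27me3 in the knockdown and H3K27ac in both lists, RpS25 had 1165 bp of H3K27ac in the control and 1186 bp in the knockdown, and RpL18 had 658 and 1530 bp. Strong H3K27ac cover was thus not always accompanied by H3K27me3. Over the 92 members knockdown cover by the marks had a Spearman rho of 0.38 and a Pearson r of 0.47, a description of windows that share length and library preparation, and over all 13922 genes 0.44 and 0.41.

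**Figure D3:**
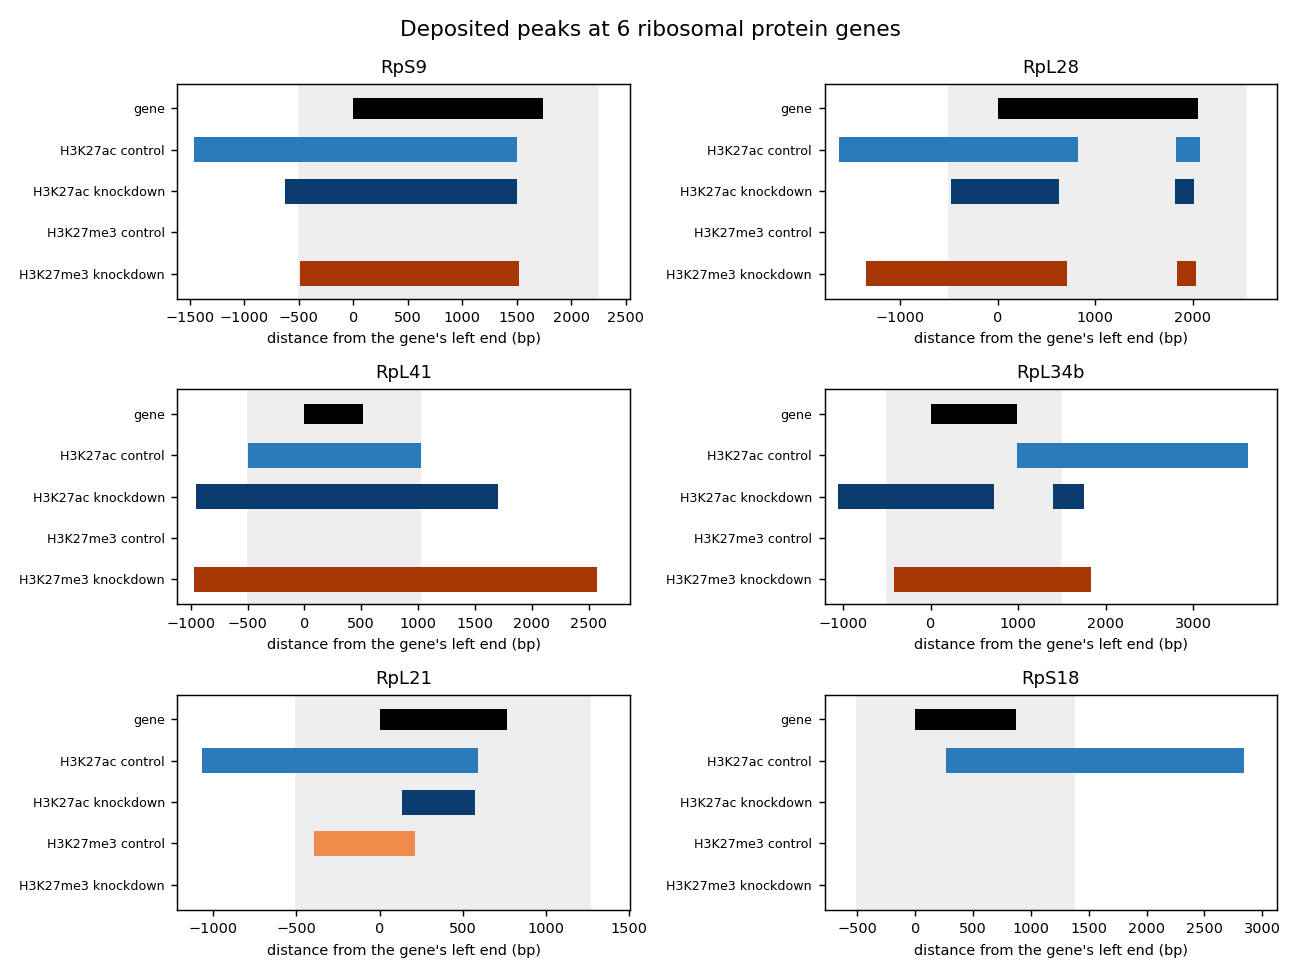
Deposited peaks of the 4 lists (coloured bars) along 6 genes (black bar), with the window of the gene and 500 bp on either side shaded, against the distance in bp from the gene's left end. At RpS9 the right ends of the H3K27ac and knockdown H3K27me3 peaks lie close together, RpL21 has H3K27me3 in the control only, and RpS18 has H3K27ac in the control only.

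By role, the 3 stalk genes had more H3K27ac cover in the knockdown, as did 45 members in all. The difference was 36.5 points at RpLP0, and only 1.20 at RpLP1 and 4.99 at RpLP2. RpLP0 is given above, and the acidic proteins RpLP1 and RpLP2, which bind it in pairs, had 1351 and 1374 bp and 389 and 469 bp. The large subunit genes had H3K27ac at 40 of 50 (control, 80.1% of all genes) and 45 (knockdown, 76.9%), with mean cover of 33.6% and 33.5%. The small subunit genes had it at 36 and 35 of 39, with mean cover of 35.5% and 34.6%. H3K27me3 in the knockdown was at 39 of 50 large subunit genes (78.0%) and 25 of 39 small subunit genes (64.1%), where 68.1% of all genes had it. It was also at the 3 stalk genes, though with 3 bp at RpLP1. The difference between the subunits was not tested, nor was that between X and the other large arms given below. Among genes whose protein is made as a fusion, RpL40, fused to ubiquitin, had H3K27ac over 946 bp in the control and 438 bp in the knockdown, and H3K27me3 over 946 bp in the knockdown. RpS27A, also fused to ubiquitin, had 672 and 1092 bp of H3K27ac and 1482 bp of H3K27me3. RpS30, fused to a ubiquitin-like protein, had 616 and 661 bp of H3K27ac and no H3K27me3. The small subunit gene sta, homologous to the vertebrate laminin receptor RPSA, had 1239 and 1459 bp of H3K27ac and 1233 bp of H3K27me3 in the knockdown.

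Several ribosomal proteins of the fly are encoded by 2 or more genes, and the copies differed in their marks. RpS5b, the copy used in the germline, was covered by H3K27ac over 1745 bp in the control and 1620 bp in the knockdown, and RpS5a, the copy used generally, over 360 and 357 bp of a longer window. H3K27me3 covered 1453 bp at RpS5b and 1131 bp at RpS5a in the knockdown. The germline copy RpS19b had 59 and 70 bp of H3K27ac, and the general copy RpS19a 135 and 634 bp. None of the RpS19b bases and none of the RpS19a control bases lay within the gene span. RpL22-like, a germline paralogue, had no H3K27ac in the control and 165 bp in the knockdown, where RpL22 had 1961 and 1218 bp. For RpS10a and RpS10b the order ran the opposite way in the control, with 222 bp at RpS10a, a copy active in the germline, and no peak at RpS10b. Germline copies thus did not all lie below their partners.

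Among the other pairs, RpS28a was covered over 751 and 1304 bp by H3K27ac and over 1137 bp by H3K27me3 in the knockdown, while RpS28b on X had 172 and 653 bp and no H3K27me3. RpL34b had 506 and 1313 bp of H3K27ac, and RpL34a 779 and 354 bp, so these copies differed between genotypes in opposite directions. RpL37-1 had 794 and 607 bp, and RpL37-2 had 603 bp in the control, no H3K27ac in the knockdown and 728 bp of H3K27me3 there. RpL10Ab had 153 and 817 bp, and RpL10Aa had no peak. RpS15Aa had 349 and 233 bp and RpS15Ab 910 and 1065 bp. RpL7 had 989 and 1364 bp and RpL7-like 91 and 487 bp, whereas RpL24 had 1091 and 431 bp and RpL24-like 464 and 213 bp. The control H3K27ac bases at RpL10Ab and RpL7-like, and all those at RpL24-like, lay in the flanks. The -like genes of these last pairs are related to yeast factors that act in ribosome assembly. RpS14a and RpS14b are tandem copies on X, 220 bp apart, with overlapping windows. The same control peak (X:7934289-7938636) reached both, and how reads that match both copies were placed is not given in the sources used here. Over the 13 second copies, H3K27ac was present at 11 (control, 80.1% of all genes) and 10 (knockdown, 76.9%). Of the other 79 members, 68 and 73 had it.

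**Figure D4:**
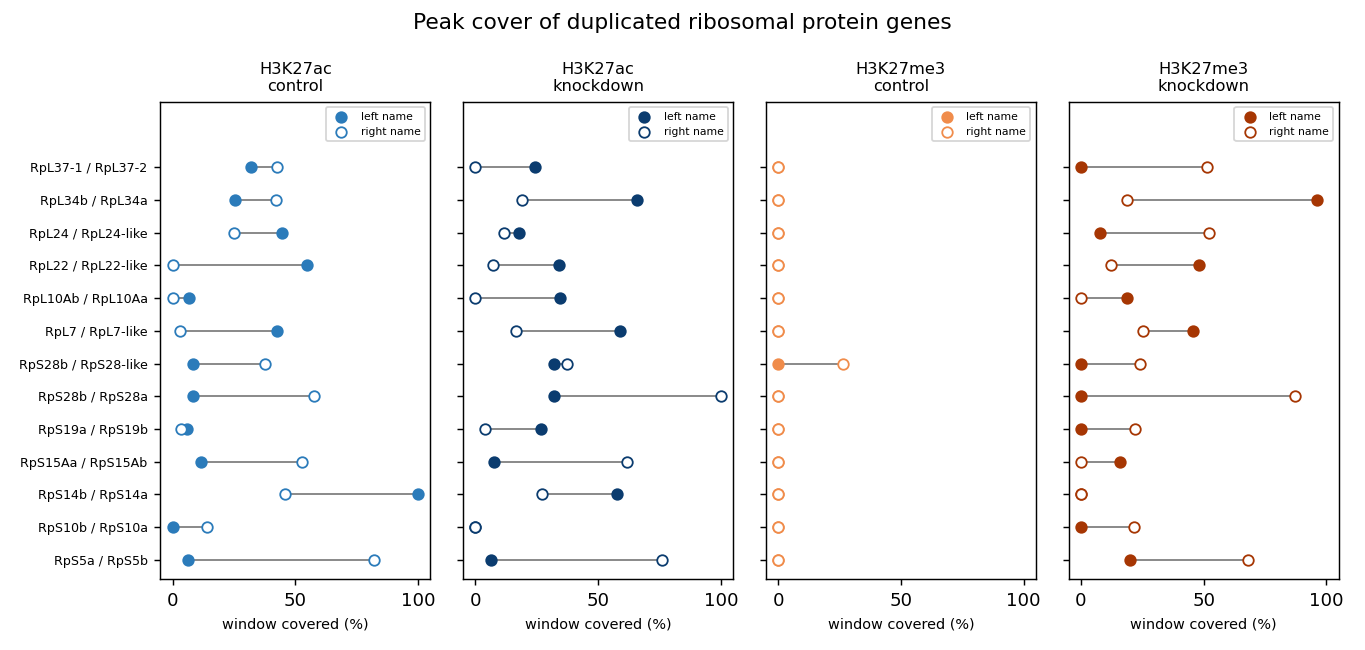
Share of the window covered by peaks in each of the 4 lists (panels, horizontal axis in percent) for 13 pairs of duplicated ribosomal protein genes, with the left name as a filled and the right name as an open point. The open point of RpS5b lies far to the right of RpS5a in both H3K27ac panels, and RpL34b lies at 96.0% in the H3K27me3 knockdown panel.

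The members were spread over all 6 arms, with 19 on 2L, 20 on 2R, 14 on 3L, 23 on 3R, 15 on X and RpS3A alone on 4. On X, H3K27me3 lay at 6 of 15 members in the knockdown (40.0%), where 61.4% of all genes on X had it. On 2L, 2R, 3L and 3R it lay at 61 of 76 (80.3%), where 69.7% of all genes did. The X-linked members with the mark were RpL22 (1719 bp), sta (1233 bp), RpS5a (1131 bp), RpS6 (527 bp), RpS15Aa (491 bp) and RpL36 (234 bp). H3K27ac was at 11 of the 15 X-linked members (control, 80.1% of all genes on the 6 arms) and 13 (knockdown, 76.9%), with a mean cover of 26.1% in both. Apart from RpS14a with RpS14b and RpL12 with RpL39, no members had overlapping windows, and 3 further pairs lay within 20000 bp of each other. These were RpS25 with RpL3, RpS15 with RpLP2, and RpS12 with RpS4. In the last of these pairs RpS4 had 1798 bp of H3K27me3 in the knockdown and RpS12, which in flies takes part in cell competition, had none. Another protein-coding gene reached into the window of 72 of the 92 members.

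Small nucleolar RNAs, which guide the modification of ribosomal RNA, are often encoded in introns of ribosomal protein genes. According to RefSeq gene spans, 29 members held at least 1 within their span, and RpS5a held the most with 14. These hosts were longer, with a median of 1792 bp against 1132 bp for the other 63. They had H3K27ac at 26 (control, 80.1% of all genes) and 27 (knockdown, 76.9%), with mean cover of 40.1% and 36.1%. The other 63 had it at 53 and 56, with 32.3% and 34.1%. H3K27me3 lay in the knockdown list at 23 hosts (79.3%) and at 44 of the others (69.8%), where 68.1% of all genes had it. The difference between hosts and others was not tested and comes with the difference in length.

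Other genes of protein synthesis and turnover gave similar values for some measures and not for others. The 73 mitochondrial ribosomal protein genes, whose ribosomes act inside mitochondria, had H3K27ac at 61 (control, 80.1% of all genes) and 71 (knockdown, 76.9%). Their mean cover was 43.3% and 37.1%. H3K27me3 lay at 56 of them in the knockdown (76.7%, 68.1% of all genes) with mean cover of 35.1%, against 24.5% for the cytoplasmic genes. The 48 proteasome subunit genes had H3K27ac at 43 (control) and 36 (knockdown). Of these 48 genes 10 had it only in the control (10.4% of all genes), where 4 of the 92 cytoplasmic ribosomal protein genes did. Their mean H3K27ac cover was 35.6% and 32.7%. Of 29 translation factors, cover by H3K27ac was higher in the knockdown at 11 and lower at 16. Of 14 genes of ribosome assembly, without the members RpL7-like and RpL24-like, it was higher at 3 and lower at 10. Over all genes it was higher at 28.0% and lower at 59.1%. Fib, the methylase of nucleolar RNA, had 1466 bp in the control and 124 bp in the knockdown, and Polr1A, the largest subunit of RNA polymerase I, had 3512 and 991 bp. These differences between lists were set side by side and not tested.

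Among 7 regulators, which include factors known at ribosomal protein promoters, H3K27ac was present in both lists at all 7 (69.7% of all genes) and its cover was lower in the knockdown at 6 (59.1% of all genes). Trf2, the TBP-related factor that serves many of these promoters, had 2541 bp in the control and 642 bp in the knockdown. Dref, which binds the promoter element DRE, had 1991 and 1982 bp, and M1BP, which binds the element Motif 1, had 690 and 644 bp. Myc, a growth regulator, had 1419 and 738 bp, its partner Max 1780 and 1050 bp, and Xrp1, a factor of cell competition, 974 and 924 bp. The exception was ct itself. H3K27me3 was present in the knockdown at all 7 regulators (68.1% of all genes), from 252 bp at Dref to 5548 bp at ct, and in the control at ct alone.

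**Figure D5:**
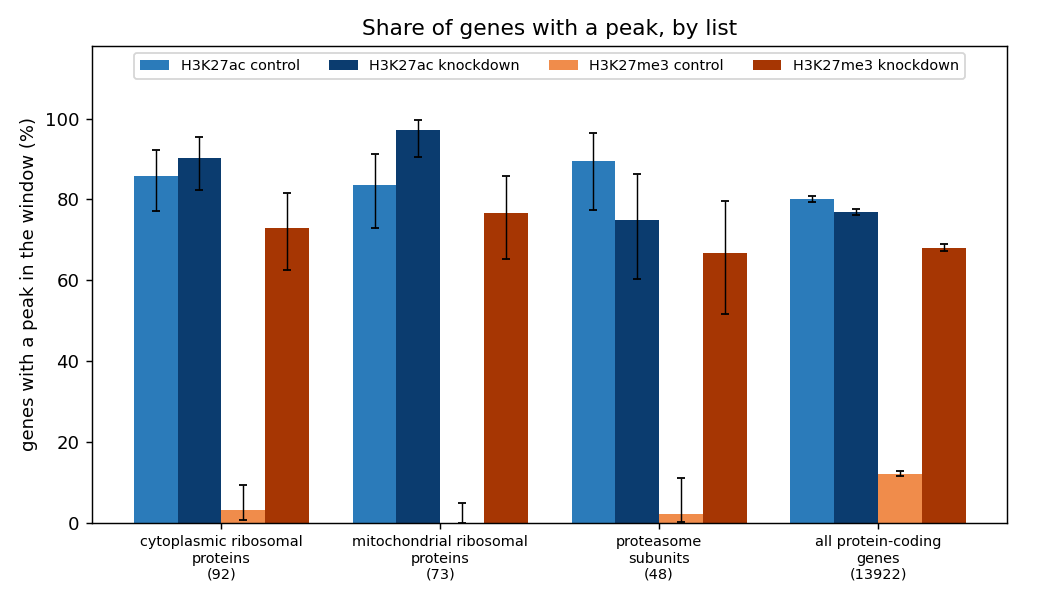
Percent of genes with at least 1 peak in the window (vertical axis) in the 4 lists (bar colours) for cytoplasmic ribosomal protein, mitochondrial ribosomal protein, proteasome and all protein-coding genes, with 95% exact Clopper-Pearson intervals that cover counting error only. The H3K27me3 control bar of the cytoplasmic ribosomal protein genes stands at 3.26% and their knockdown bar at 72.8%. The same bars of all protein-coding genes stand at 12.2% and 68.1%.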

How the data were processed

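The authors deposited 1 MACS2 broad peak list per library. The build dm6 and the names MACS2, SICER, Bowtie2 and FastQC come from the submitters' processing notes, and input DNA was the control per the labels' protocols. Their versions and roles, the threshold and the read depth were not stated by the labels used here. Per the file layout each peak has the authors' deposited score, fold ratio over background, −log10 p and −log10 q. In 75206 of 75208 peaks the deposited score equalled the whole-number part of 10 times −log10 q. Peaks on Y were left out, overlapping peaks of a list merged, and starts are given 1-based. Gene spans came from a RefSeq table of release 6 (GCF_000001215.4), matched by symbol. Cover functions were checked on 1000 simulated windows (Python 3.11.15, pandas 2.3.3, scipy 1.17.1).

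Members and lists were chosen with earlier results of these data known. Of the other lists' symbols, 29 of 33 translation factors and 16 of 18 assembly genes matched the table, and RpL7-like and RpL24-like, which are members, were then left out of the assembly genes. Named genes were those of every pair, with H3K27ac in 1 list or neither, with H3K27me3 in the control, the 5 largest gains and losses of each mark, the 3 highest folds per list, RpLP0, RpLP1, RpLP2 and sta; others were chosen after their values were seen. Losses of H3K27me3 occurred at 2 members only. Values of 1 member are not reported here by name. Windows around transcript starts and promoter motifs were planned and not run, since the table used here gives no strand. Alternatives were a −log10 q of at least 2, a fold of at least 2, equal covered length, other flanks, a larger overlap, and bases of no other gene.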

Additional observations from a re-analysis of the deposited data

How the results depend on the processing

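With the longer list of each mark trimmed to the covered length of the shorter, H3K27me3 was knockdown-only at 5 genes (65 as reported) and control-only at 2 (1 as reported), the mean difference of cover, knockdown minus control, 0.978 points (23.8 as reported) and the members with both marks in the knockdown 6 (61 as reported). Trimming removes the peaks of lowest -log10 q from the longer list. Over all genes the trimmed lists gave H3K27me3 knockdown-only at 7.99% and control-only at 6.56%. The all-gene mean difference was 0.695 points, and 9.62% of all genes had both marks in the knockdown. The mean H3K27ac difference, -0.024 points as reported, is close to 0 and took the other sign there (3.11 points), with no flank (6.06), without bases of other genes (2.28) and, in an alternative chosen after seeing the data, without second copies (0.547); it was -0.143 with a flank of 1000 bp. Where -log10 q was at least 2 it was 8.46 points (all genes 1.17) and with a fold of at least 2 it was 10.1 (all genes 6.36). In these last settings, in that order, H3K27ac only in the knockdown was at 26 and 28 genes (18.4% and 31.9% of all genes). H3K27me3 was knockdown-only at 16 and 20 (19.6% and 21.0% of all genes) and control-only at 0 and 0 (0.467% and 0.417%). The H3K27me3 difference was 5.62 and 7.59 points (all genes 4.27 and 4.56). Genes with both marks were 0 and 0 in the control (1.13% and 0.603% of all genes) and 13 and 18 in the knockdown (7.10% and 15.8%). The H3K27ac difference of all genes was 0.0343 points at equal covered length and -6.91 with no flank. H3K27ac only in the control was at 2 genes with a fold of at least 2, with a flank of 1000 bp and without second copies. The shares of all genes were 4.38%, 9.20% and 10.4% in that order. Genes with both marks in the control were 1 with no flank (6.94% of all genes) and 1 with at least 200 bp covered (5.83%), a setting that gives no mean cover. With only H3K27me3 bases outside H3K27ac peaks, chosen after seeing the data, 39 genes were knockdown-only (41.5% of all genes) and 0 control-only (1.62%). The difference there was 4.76 points (all genes 4.62). The causes were not tested. Peak calls hold no counts, so depth sets a limit on every value that cannot be stated. No paired analysis was possible because each combination has 1 library.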
